A study of Mus musculus with 10 samples.

Results

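The genes described here encode transcription factors of the bHLH-PAS family and the PAS-domain proteins of the circadian clock. The 8 genes are Arnt, Arnt2, Hif1a, Ahr, Arntl, Clock, Per1 and Per2, and all 8 were found among the 14738 genes of the deposited table. They were matched by gene symbol. The list was drawn up with results of these data known, and Arnt2 was selected on its fold change between the groups, so the group differences of the 8 genes are given as a description without p-values.

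RNA was sequenced from splenic regulatory T (Treg) cells of mixed bone-marrow chimeras, mice rebuilt with equal parts of CD45.1+ marrow and marrow of a tested genotype. The tested marrow was Foxp3Cre in the control group (WT) and Foxp3CreFlcnfl/fl in the other (Flcn KO). Both groups therefore carried the Cre under control of Foxp3, and the deletion of Flcn was by design limited to cells that express Foxp3. The sorted cells were CD4+ and Foxp3-YFP+, and carried CD45.2 but not CD45.1, so the Treg cells of the CD45.1+ partner marrow were left out. There were 5 libraries per group, stated to be biological replicates. The age, sex and strain background of the mice and any batch are not given here. The codes of the samples run through the WT group first, so an effect of handling order and the genotype cannot be told apart.

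bHLH-PAS factors bind DNA as pairs. One partner is a sensor or a regulated subunit, such as HIF-1alpha, which is stabilised when oxygen is low, the aryl hydrocarbon receptor, which binds small ligands, or CLOCK. The other is a general partner, ARNT or ARNT2 for HIF-1alpha and the receptor, and BMAL1 (the product of Arntl) for CLOCK. PER proteins have PAS domains but no DNA-binding bHLH region, and they restrain CLOCK and BMAL1 in the daily feedback loop. In T cells, HIF-1alpha is known for its part in glycolysis and helper cell fate, and the aryl hydrocarbon receptor for its part at mucosal surfaces.

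Each library had between 1914516 and 4153854 reads on the genes of the table. WT replicate 1 stood apart, with 44.1% of its reads on mitochondrial rRNA against 24.7% to 31.8% in the other 9 libraries. The sorted cells carried the markers of their label, with Foxp3 at 1283 ± 64.1 normalized counts in WT against 1208 ± 100 in the Flcn KO-labelled libraries (SD, n = 5 each). The other 5 Treg markers were also present in every library, though not all at equal levels. Il2ra, the interleukin-2 receptor alpha chain, rose from 2184 ± 155.8 to 3228 ± 138 (limma adjusted p = 0.0292), and Ikzf2, which encodes Helios, fell from 4000.0 ± 301 to 2732 ± 77.6 (limma adjusted p = 0.0336). Ctla4, an inhibitory receptor gene, had 1261 ± 143 and 879 ± 113, with groups that did not overlap. It did not pass in limma (adjusted p = 0.106) but was called lower in the authors' deposited table (adjusted p = 9.49e-05). Cd4 and Cd3e overlapped. The part of these markers in the differences below was not tested. The count of Flcn was 45.6 to 78.0 in WT and higher, 124 to 158, in the Flcn KO-labelled libraries. Exons are not resolved in a count per gene, so this value does not check the labels. Markers of other cells were present at low levels. The 8 B-cell markers summed to 79.3 to 144 normalized counts in WT against 95.5 to 228 in the Flcn KO-labelled libraries. None of the 8 passed the threshold used throughout, a limma p adjusted over all tested genes of under 0.05, and 7 had a positive log2 fold change. The 6 measured myeloid and dendritic cell markers summed to 60.7 to 236 in WT and 109 to 262 in the Flcn KO-labelled libraries. No marker of either list was at 0 in a whole group, while Blk was at 0 in WT replicate 4 and Adgre1 in WT replicate 1. Sums for CD8 T and NK cell markers (76.2 to 114 and 77.9 to 136) and for erythroid and platelet markers (17.3 to 38.2 and 19.98 to 55.5) overlapped as well. The part of other cells was not tested either, and in bulk samples fewer cells of a type and less RNA per cell cannot be told apart.

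Promoter sequences of 4 genes are shown because they set the gene that differed most beside its close relative, and the clock activator that was lower beside a clock gene that was not. They run from 250 bases before to 50 bases after the annotated start, 5′ to 3′, and come from RefSeq on GRCm38.p6, which is not the mm9 build of the deposited table. Capitals mark 4 motifs searched on both strands. They are the E-box CACGTG, bound by CLOCK with BMAL1 and by BHLHE40, and the HIF core, searched only in the form ACGTG, which every E-box also holds. The others are the AHR core GCGTG and the ROR core AGGTCA, read as TGACCT on the other strand. Of 32851 promoters in the table, 7.15% held the E-box, 19.6% the HIF core, 32.4% the AHR core and 16.3% the ROR core. Among the 11922 promoters of tested genes the shares were 9.77%, 25.2%, 49.3% and 12.6%. The Arnt2 promoter lies at chr7:84409989-84410288 on the minus strand, that of Arnt at chr3:95434140-95434439 on the plus strand. The second of 2 entries for Arntl lies at chr7:113207261-113207560 and the first of 2 for Per1 at chr11:69098699-69098998, both on the plus strand.
Arnt2: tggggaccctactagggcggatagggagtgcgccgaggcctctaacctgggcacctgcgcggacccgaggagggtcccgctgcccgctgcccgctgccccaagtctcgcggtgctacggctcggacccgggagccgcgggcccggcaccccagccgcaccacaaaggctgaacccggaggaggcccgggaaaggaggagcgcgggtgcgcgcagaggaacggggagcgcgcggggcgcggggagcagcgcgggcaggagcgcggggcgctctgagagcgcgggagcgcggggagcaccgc
Arnt: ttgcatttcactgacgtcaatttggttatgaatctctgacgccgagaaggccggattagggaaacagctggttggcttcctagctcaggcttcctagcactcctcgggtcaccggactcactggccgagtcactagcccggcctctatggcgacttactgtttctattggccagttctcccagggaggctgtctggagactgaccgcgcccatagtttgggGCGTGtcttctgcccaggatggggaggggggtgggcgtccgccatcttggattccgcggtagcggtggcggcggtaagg
Arntl: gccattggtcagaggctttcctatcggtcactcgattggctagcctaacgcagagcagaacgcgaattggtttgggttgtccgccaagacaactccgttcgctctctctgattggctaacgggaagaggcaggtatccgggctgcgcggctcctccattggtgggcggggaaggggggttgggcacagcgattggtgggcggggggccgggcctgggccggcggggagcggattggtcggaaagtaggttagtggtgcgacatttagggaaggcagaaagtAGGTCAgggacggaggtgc
Per1: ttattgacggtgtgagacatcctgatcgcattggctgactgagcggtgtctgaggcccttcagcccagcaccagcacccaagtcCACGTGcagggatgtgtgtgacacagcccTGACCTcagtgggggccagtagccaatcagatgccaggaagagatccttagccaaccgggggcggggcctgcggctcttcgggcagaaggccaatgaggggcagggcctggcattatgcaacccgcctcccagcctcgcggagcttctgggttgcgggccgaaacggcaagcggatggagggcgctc
The Arnt2 window, with a GC content of 76.7%, held none of the 4 motifs. The Arnt window (59.3% GC) held 1 AHR core, which starts 29 bases before the start site. The printed Arntl window held 1 ROR core, 32 bases into the transcript, and the other Arntl entry held none of the 4 motifs. The printed Per1 window held 1 E-box, with the HIF core on both of its strands, and 1 ROR core, while the other Per1 entry held only 1 AHR core. The window of Hif1a, not printed, had 1 E-box, 1 further HIF core and 1 ROR core. Of the 8 genes, 6 had an entry in the table (Ahr and Per2 did not). A match is a description of letters and not of binding.

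Arnt2 was the member that differed most between the groups. Its values in WT were 65.6, 76.2, 85.3, 38.5 and 70.3 normalized counts for replicates 1 to 5, that is gene reads divided by a size factor per library. In the Flcn KO-labelled libraries they were 12.0, 30.0, 13.3, 6.94 and 9.42. All Flcn KO-labelled libraries lay below all WT libraries, and the closest approach was between WT replicate 4 and Flcn KO replicate 2. The means were 67.2 ± 17.6 and 14.3 ± 9.09 (SD, n = 5 each). The fitted difference was 4.83-fold, a log2 fold change of -2.27 (SE 0.35, 95% interval -3.06 to -1.49). It was fitted to log2(normalized count + 1), a scale that understates the change of low genes. Between 34 and 107 reads lay behind each WT value, and between 7 and 27 behind each value of the other group. Leaving out WT replicate 1 gave -2.27, and leaving out Flcn KO replicate 2, the highest of its group, gave -2.57. In the limma fit, Arnt2 was the 1 member of 8 with an adjusted p under 0.05, where 1.71% of all 14723 tested genes had one. Likewise, 1 of 8 passed in edgeR, where 5.64% of 10493 tested genes did, and 1 of 8 in the authors' deposited table, where 4.77% of its genes did. The choice of Arnt2 used this contrast, so nothing is read from these counts.

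**Figure D1:**
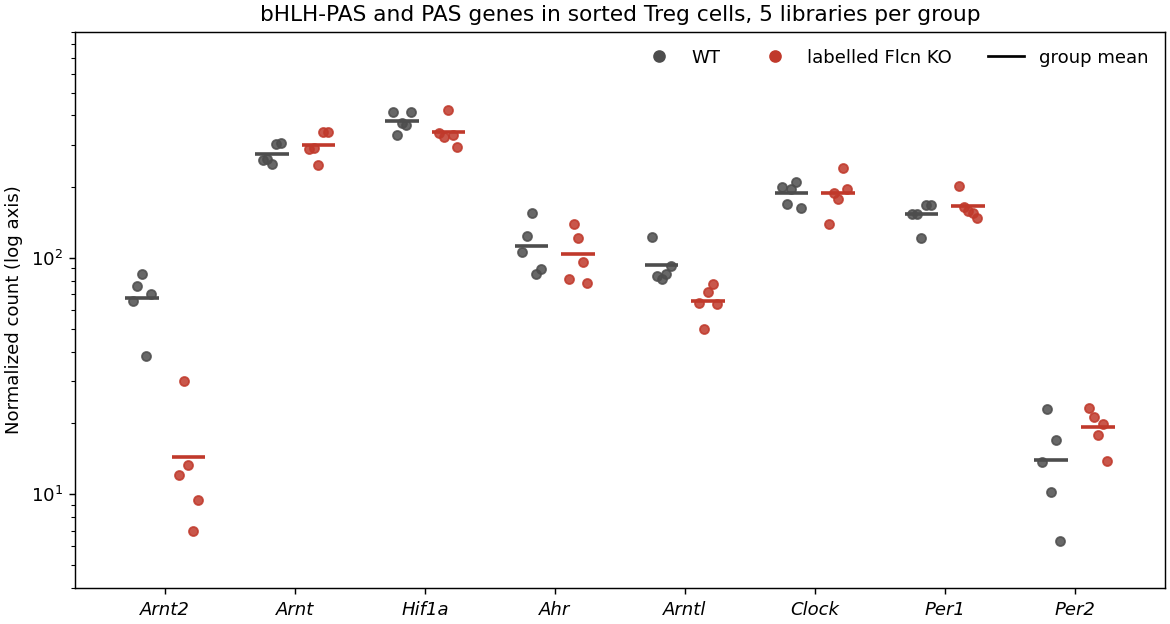
Normalized counts (log axis) of the 8 genes in each of 5 WT (grey) and 5 Flcn KO-labelled libraries (red), with lines at the group means. Arnt2 ranged from 38.5 to 85.3 in WT and from 6.94 to 30.0 in the Flcn KO-labelled libraries. Arntl was also lower in every Flcn KO-labelled library, and the other 6 genes overlapped.

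Arnt, the widely expressed relative of Arnt2, showed no such gap. It had 259, 261, 250, 303 and 305 normalized counts in WT replicates 1 to 5 and 287, 291, 246, 339 and 340 in the Flcn KO-labelled libraries. The groups overlapped over most of their range. The log2 fold change was 0.12 with a 95% interval of -0.18 to 0.42.

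Counts per gene depend on transcript length, so levels were compared per kilobase of the principal GENCODE transcript. Its length was 2699 bases for Arnt and 6151 for Arnt2. Levels and shares per kb rest on these annotated lengths, and the transcripts present in the cells were not tested. Arnt stood at 102 ± 9.77 normalized counts per kb in WT and 111 ± 14.6 in the Flcn KO-labelled libraries. Arnt2 stood at 10.9 ± 2.87 and 2.33 ± 1.48. Arnt2 thus made up 9.77% ± 2.90 of the summed Arnt and Arnt2 level in WT, with 5.29% to 13.04% in single libraries, and 2.11% ± 1.36 in the Flcn KO-labelled libraries, with 0.890% to 4.33%. The sum of both was 113 ± 8.12 per kb in WT and 114 ± 14.1 in the Flcn KO-labelled libraries (SD, n = 5 each). The summed level of these 2 partner genes differed by less than its spread between replicates. However, the whole Arnt2 level in WT (10.9 per kb) was smaller than the SD of the sum in the Flcn KO-labelled libraries (14.1). This comparison therefore cannot show whether the sum was kept when Arnt2 was lower.

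**Figure D2:**
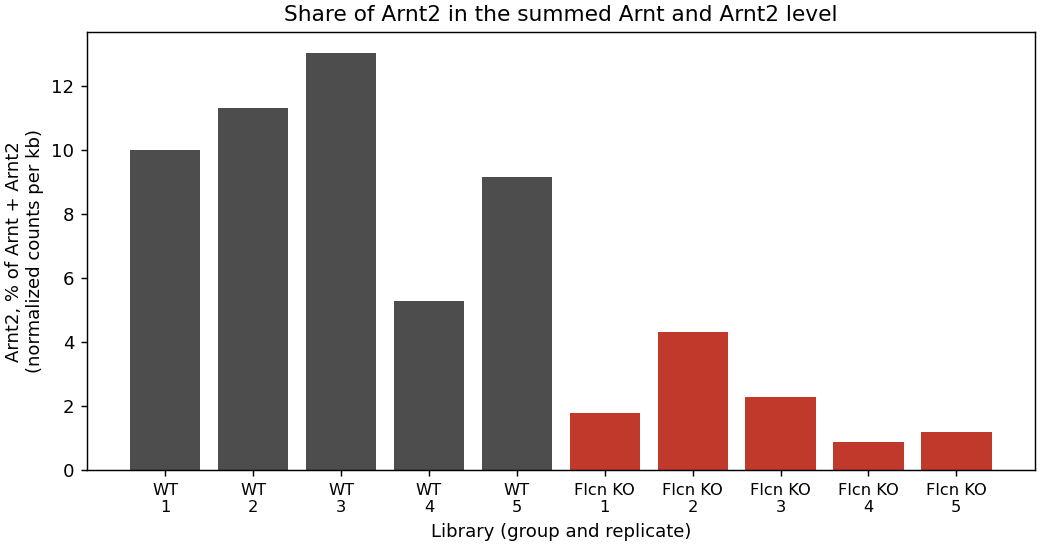
Share of Arnt2 in the summed Arnt and Arnt2 level per kb in each library, in percent. WT libraries (grey) ranged from 5.29% to 13.04% and Flcn KO-labelled libraries (red) from 0.890% to 4.33%.

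Arnt2 also varied among libraries of 1 group. Its within-group SD was 0.61 on the log2 scale. That was larger than the SD of 93.8% of the 2486 tested genes with a mean within 1.5 times its own, whose median SD was 0.36. These means were taken over all 10 libraries, while Arnt2 had 67.2 in WT and 14.3 in the Flcn KO-labelled libraries. Genes near the lower mean of Per2 (16.5) had a median SD of 0.52. The part of low counts in the spread of Arnt2 was not tested. Ahr varied widely for its level too, with an SD of 0.35 that exceeded 87.9% of like genes. The SDs of Arnt (0.17), Hif1a (0.16), Arntl (0.24), Clock (0.23), Per1 (0.18) and Per2 (0.50) lay between the 30.9 and 65.1 percent marks of genes at their levels.

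The genes whose pattern over the 10 libraries was nearest to that of Arnt2 were sought by the root mean square difference of centred log2 values, among 5975 genes with a mean of 50 or more. The nearest was Ccr2, a receptor for inflammatory chemokines, at 0.44 log2 units, where the median gene lay at 1.27. Gcnt1, which branches O-glycans, followed at 0.50, and Nav2, Csf1, Pttg1, Il1rl1, Tigit and Icos lay between 0.60 and 0.69. Il1rl1 encodes the interleukin-33 receptor and Icos a costimulatory receptor. All 8 were lower in every Flcn KO-labelled library than in any WT library, as Arnt2 was, so most of this likeness is the group difference itself. When each gene was centred on its group means, so that the group difference was removed, the nearest 5 were Ppp5c, Ndufb9, Ccr2, Eif4e3 and Ccr4, at 0.30 to 0.33 log2 units against a median of 0.58. Ccr2 was the 1 gene on both lists.

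**Figure D3:**
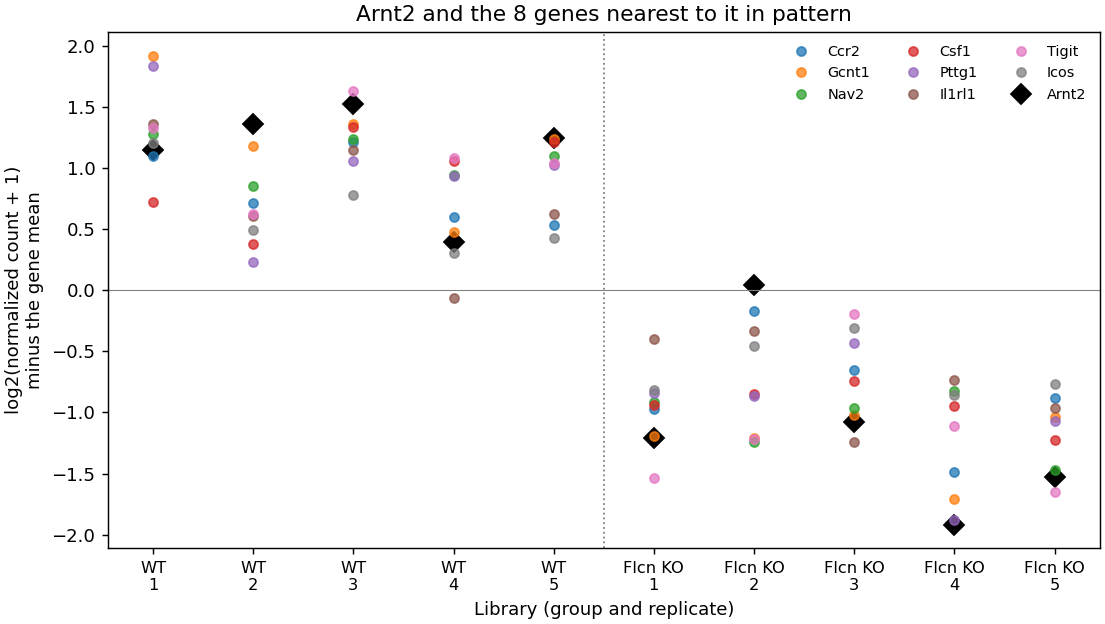
Centred log2(normalized count + 1) of Arnt2 (black diamonds) and the 8 genes nearest to it in pattern, by library. All 9 genes are higher in the WT libraries, and Arnt2 in Flcn KO replicate 2 and WT replicate 4 lies closest to the other group.

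The measured genes on either side of Arnt2 on its chromosome did not share its difference. Abhd17c had 65.2 ± 10.5 normalized counts in WT against 60.5 ± 14.6 in the Flcn KO-labelled libraries, and Fah had 10.1 ± 5.77 and 9.95 ± 2.53. Both pairs of groups overlapped, and neither gene passed the threshold (limma adjusted p = 0.827 for Abhd17c and 0.904 for Fah). RefSeq places predicted transcripts within the Arnt2 locus. The sources used here do not say whether strand was used in counting, so reads of overlapping transcripts cannot be told apart from those of Arnt2.

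The 2 sensor subunits overlapped between the groups. Hif1a, the oxygen-regulated partner of ARNT, had 415, 332, 372, 364 and 415 normalized counts in WT replicates 1 to 5. The Flcn KO-labelled libraries had 338, 325, 420, 332 and 295. The highest value of all was in Flcn KO replicate 3, and the log2 fold change was -0.15 with a 95% interval of -0.45 to 0.14. Ahr had 105, 124, 155, 84.98 and 89.2 in WT and 81.4, 139, 122, 96.1 and 78.5 in the Flcn KO-labelled libraries. Its log2 fold change was -0.11 with an interval of -0.60 to 0.38, which holds 0, and the sign turned without WT replicate 3 (0.01).

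Arntl, which encodes the clock activator BMAL1, was the other member whose groups did not overlap. It had 123, 84.0, 81.5, 84.98 and 92.4 normalized counts in WT replicates 1 to 5 and 64.3, 49.96, 71.8, 77.3 and 63.4 in the Flcn KO-labelled libraries. WT replicate 1 was far above the rest of its group, and the gap between the highest Flcn KO-labelled library and the lowest WT library was small. The log2 fold change was -0.50 (SE 0.16) with all libraries and -0.40 without WT replicate 1. Arntl was not called in the limma fit, in any of its 19 alternatives or in the authors' deposited table. In all, 2 of the 8 members had groups that did not overlap, both lower. Of all tested genes, 4.92% had groups that did not overlap, 2.47% with higher and 2.45% with lower values in the Flcn KO-labelled libraries.

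The gene of CLOCK, the DNA-binding partner of BMAL1, had near-equal means. Clock had 139 to 239.8 normalized counts in the Flcn KO-labelled libraries and 163 to 208 in WT, with means of 188 ± 36.2 and 187 ± 19.8. Its log2 fold change was -0.01 with a 95% interval of -0.36 to 0.35, and the sign changed in 7 of 19 alternatives. Per1, a repressor of CLOCK and BMAL1, had a median of 154 in WT (121 to 167) and 158 in the Flcn KO-labelled libraries (147 to 201). Its relative Per2 had 13.6, 22.8, 10.2, 17.0 and 6.30 in WT and 23.1, 21.1, 17.7, 19.8 and 13.8 in the Flcn KO-labelled libraries. These Per2 values overlapped and rested on 6 to 32 reads, and its interval of -0.14 to 1.18 was the widest of the 8 after that of Arnt2.

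Per kb, Arnt stood at the top of the 8 genes in both groups. This order depends on the annotated lengths used, from 2699 bases for Arnt and 4724 for Hif1a to 9744 for Clock. Before division by length, Hif1a lay above Arnt, with means of 379 and 276 normalized counts in WT. In the Flcn KO-labelled libraries these means were 342 and 301. In WT, Arnt (102 per kb) was followed by Hif1a (80.3 ± 7.54), with ranges that did not overlap. Per1 (32.6 ± 4.01) and Arntl (31.3 ± 5.71) came next and overlapped. Arntl (lowest 27.4) also met Ahr (20.1 ± 5.19, highest 28.0), and Ahr overlapped with Clock (19.2 ± 2.04). Below them and apart came Arnt2 (10.9) and Per2 (2.40 ± 1.08). In the Flcn KO-labelled libraries the top 4 kept this order, with Hif1a at 72.4 ± 9.86, Per1 at 35.3 ± 4.56 and Arntl at 21.96 ± 3.47. Arntl then overlapped with Clock (19.3 ± 3.72) and Ahr (18.6 ± 4.72). At the bottom, the ranges of Arnt2 (1.13 to 4.87) and Per2 (2.37 to 3.97) overlapped, while in WT every Arnt2 value (6.26 to 13.9) lay above every Per2 value (1.08 to 3.91).

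No other family member passed the test. Of 14 bHLH-PAS relatives and coactivators, 10 were found in the table and 9 were tested. None passed in limma, and none had an unadjusted p under 0.05, where 14% of all tested genes did. None passed in DESeq2 or in edgeR, which tested only 5 of the list. The smallest p was that of Npas4, an activity-induced factor of neurons, with 13.9 ± 6.49 normalized counts in WT against 6.85 ± 4.40 in the Flcn KO-labelled libraries (limma adjusted p = 0.358). Npas4 was not among the genes tested in edgeR. Npas2, which can stand in for CLOCK, had at most 4.199 normalized counts in any library, and Epas1, which encodes HIF-2alpha, at most 11.3. Hif3a had 12.2 ± 9.93 and 14.3 ± 6.05, and Per3 had 23.7 ± 8.31 and 19.5 ± 8.91. Ahrr, the repressor of the aryl hydrocarbon receptor, was below the filter on low values. It had no reads in 6 libraries and 16.3 normalized counts in Flcn KO replicate 1. The nuclear receptor coactivator genes of the family included Ncoa2, at 895 ± 120 and 749 ± 49.8, and Ncoa3, at 772 ± 73.8 and 828 ± 75.6 (limma adjusted p = 0.434 and 0.781).

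Among clock partners and outputs, Bhlhe40 rose and Hlf fell, and 18 of the 20 tested genes did not pass. The median log2 fold change of the list was -0.03, and that of all tested genes 0.003. For comparison, 0.944% of all tested genes passed as higher and 0.768% as lower. Bhlhe40 encodes a bHLH repressor without PAS domains that binds E-boxes and opposes CLOCK and BMAL1. It had 209, 216, 330, 252 and 333 normalized counts in WT replicates 1 to 5 and 620, 513, 588, 516 and 559 in the Flcn KO-labelled libraries. The lowest of the latter lay well above the highest WT library. The log2 fold change was 1.08 (SE 0.17, limma adjusted p = 0.0127), and it was 1.00 without WT replicate 1 (adjusted p = 0.0211).

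Hlf, a PAR-domain transcription factor under clock control and also active in blood stem cells, had 53.3, 57.7, 31.8, 29.5 and 55.6 normalized counts in WT. In the Flcn KO-labelled libraries it had 11.1, 28.9, 7.74, 8.92 and 15.7. The groups did not overlap, but WT replicate 4 and Flcn KO replicate 2 nearly met, the same 2 libraries that came closest for Arnt2. Its log2 fold change was -1.68 (SE 0.35, limma adjusted p = 0.0429). That call was kept in 1 of 10 fits with a library left out, the one without Flcn KO replicate 2, while the adjusted p of the other 9 ran from 0.0578 to 0.107 (0.0899 without WT replicate 1).

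Rora encodes a nuclear receptor that activates Arntl through ROR elements and is also known from tissue Treg cells. It had 375, 281, 419, 318 and 351 normalized counts in WT and 199.8, 243, 252, 174 and 199.7 in the Flcn KO-labelled libraries. No Flcn KO-labelled library reached the lowest WT library. The log2 fold change was -0.70 (SE 0.16, limma adjusted p = 0.0577), just short of the threshold. edgeR called it lower (adjusted p = 0.000742), as did the authors' deposited table (adjusted p = 2.15e-05). Rora was called in 5 of the 19 alternatives, edgeR among them, and in 0 of the 10 fits with a library left out. In those 10 fits the limma adjusted p ran from 0.0602 to 0.137, and with the replicate block it was 0.157.

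Several other clock genes overlapped between the groups, unlike Arntl, Bhlhe40, Hlf and Rora above. Dbp, an output driven by CLOCK and BMAL1, had 8.90 ± 5.03 normalized counts in WT against 9.09 ± 5.30 in the Flcn KO-labelled libraries. The repressor Nr1d1 had 20.4 ± 13.01 and 16.0 ± 6.32, with 43.3 in WT replicate 3 alone above 24.9. Nr1d2 had 92.7 ± 21.2 and 106 ± 12.8. The cryptochromes Cry1 (69.8 ± 6.17 and 84.6 ± 16.5) and Cry2 (53.5 ± 6.35 and 53.2 ± 11.4) did not pass (limma adjusted p = 0.507 and 0.97). Nfil3, a repressor in the same output loop, had 18.3 ± 7.57 and 10.95 ± 5.10 (limma adjusted p = 0.425). Btrc, which targets PER proteins for degradation, had a log2 fold change of -0.40 (limma adjusted p = 0.402). The hour of collection is not known here, so its part in the values of clock genes was not tested.

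**Figure D4:**
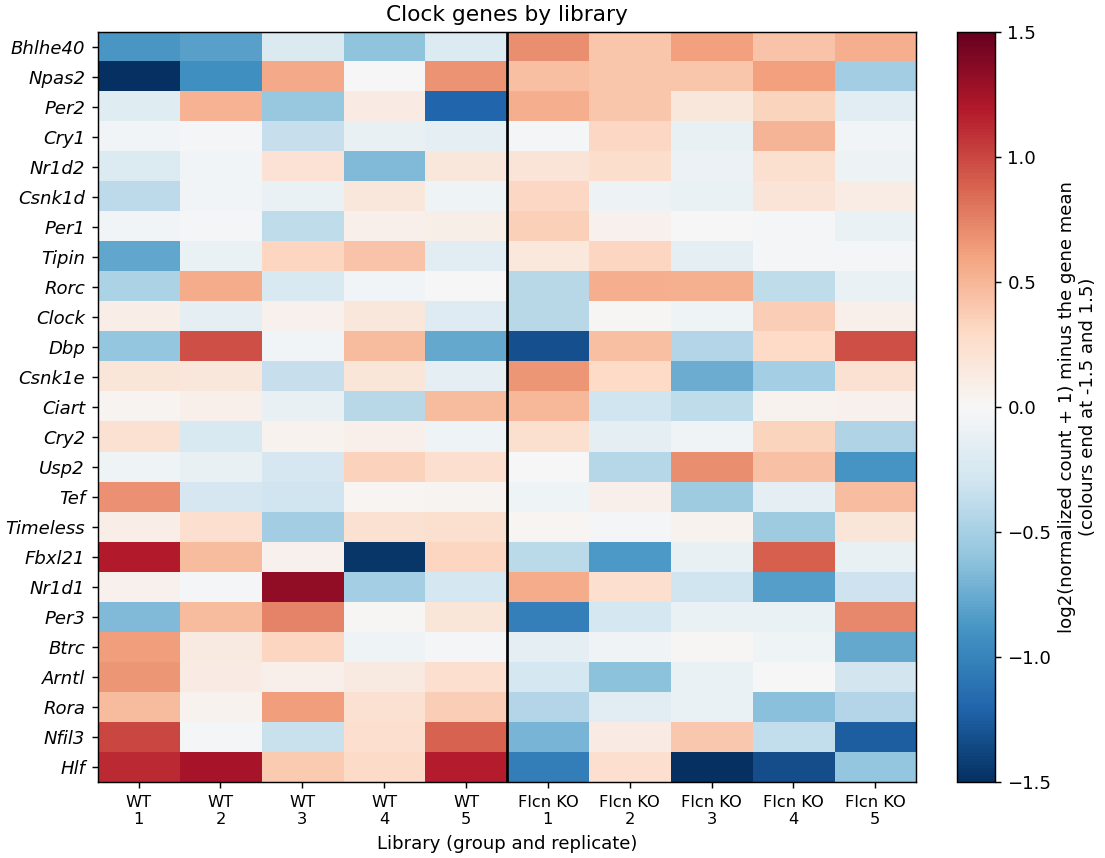
Centred log2(normalized count + 1) of clock genes by library, ordered by log2 fold change from higher (top) to lower (bottom) in the Flcn KO-labelled libraries. Bhlhe40 at the top and Hlf at the bottom passed the threshold. Rora and Arntl, near the bottom, were lower in every Flcn KO-labelled library without passing it.

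Genes that control HIF-1alpha did not pass the test. All 14 listed genes were tested, 2 of them under another symbol, and none passed in limma, edgeR or DESeq2, with 1 at an unadjusted p under 0.05, no larger a share than the 14% of all tested genes. That gene was Cited2, which competes with HIF for its coactivators. It had 71.6 ± 29.4 normalized counts in WT against 46.1 ± 3.92 in the Flcn KO-labelled libraries, and WT replicate 1 alone reached 123 (limma adjusted p = 0.312). Cited2 and the coactivator gene Crebbp (log2 fold change -0.18, limma adjusted p = 0.5) were lower in every Flcn KO-labelled library, by small gaps. The highest Flcn KO-labelled value and the lowest WT value were 49.96 and 51.4 for Cited2 and 1446.4 and 1451.5 for Crebbp. These were 2 of 14 genes, where 2.45% of all tested genes were lower without overlap. The von Hippel-Lindau gene Vhl, which marks HIF for degradation, had 16.2 ± 5.38 and 18.6 ± 1.81. The oxygen-sensing hydroxylase gene Egln1 had 138 ± 27.1 and 136 ± 26.1, and its HIF-induced relative Egln3 had 12.5 ± 6.89 and 21.3 ± 7.22 (limma adjusted p = 0.449).

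Of 35 listed HIF targets, 30 were tested, and 1 rose and none fell, where 0.944% of all tested genes rose and 0.768% fell. The gene that rose was Eno2, which encodes an enolase, a glycolytic enzyme best known from neurons, and its rise was known when the list was written. Eno2 had 2.48, 7.12, 14.0, 15.9 and 15.7 normalized counts in WT replicates 1 to 5 and 59.2, 58.8, 60.8, 41.6 and 46.5 in the Flcn KO-labelled libraries. The groups were far apart, though WT values rested on 2 to 15 reads. Its log2 fold change was 2.38 (SE 0.41, limma adjusted p = 0.0204), and 1.98 without WT replicate 1 (adjusted p = 0.00625). In 5 of 10 fits with 1 library left out it was not called: without WT replicate 2 (adjusted p = 0.0535) or Flcn KO replicate 1 (0.0571), 2 (0.0552), 3 (0.0501) or 5 (0.0501).

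With Eno2 included, the 30 tested HIF targets were split in sign. They had 16 positive and 14 negative log2 fold changes, with a median of 0.06. Of these 30 genes 4 had an unadjusted p under 0.05, a share close to the 14% of all tested genes. Besides Eno2, they were Ndrg1, a stress-induced gene, with 30.9 ± 9.33 and 51.8 ± 8.07 normalized counts (limma adjusted p = 0.103), the collagen hydroxylase gene P4ha1, with 142 ± 18.9 and 101 ± 11.8 (0.149), and the histone demethylase gene Kdm3a, with 282 ± 27.7 and 347 ± 31.9 (0.312). P4ha1 lay lower and Kdm3a higher in every Flcn KO-labelled library. With Eno2, 2 of the 30 genes lay higher throughout and 1 lower, where 2.47% and 2.45% of all tested genes did. Besides Eno2, the authors' deposited table called Ndrg1 (adjusted p = 0.0386) and P4ha1 (0.0234) but not Kdm3a (0.0889). It called 4.77% of all its genes. In edgeR, P4ha1 also passed (adjusted p = 0.0322). Both the glucose transporter gene Slc2a1 (84.6 ± 16.5 and 80.8 ± 23.7) and the lactate dehydrogenase gene Ldha (492 ± 95.4 and 584 ± 110) overlapped (limma adjusted p = 0.899 and 0.61).

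Of 14 listed chaperones and targets of the aryl hydrocarbon receptor, 8 were found and 7 tested. None passed in limma, 1 had an unadjusted p under 0.05, and edgeR and DESeq2 each called that same 1. Of all tested genes 14% had such a p, and 1 of 7 is near that share. edgeR tested 6 of the list, and of all genes it tested 5.64% passed. DESeq2 called 727 of 14738 genes. The gene was Entpd1, which encodes the ectonucleotidase CD39 of Treg cells. It had 118 ± 23.8 normalized counts in WT against 79.8 ± 12.8 in the Flcn KO-labelled libraries (limma adjusted p = 0.194). The authors' deposited table also called Entpd1 (adjusted p = 0.0386), and 4.77% of all its genes. The direct target Tiparp had 52.3 ± 10.1 and 44.0 ± 11.6, the gut-homing receptor gene Gpr15 had 7.31 ± 5.20 and 4.44 ± 3.90, and the chaperone gene Ptges3 had 179 ± 20.8 and 205 ± 15.6.

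**Figure D5:**
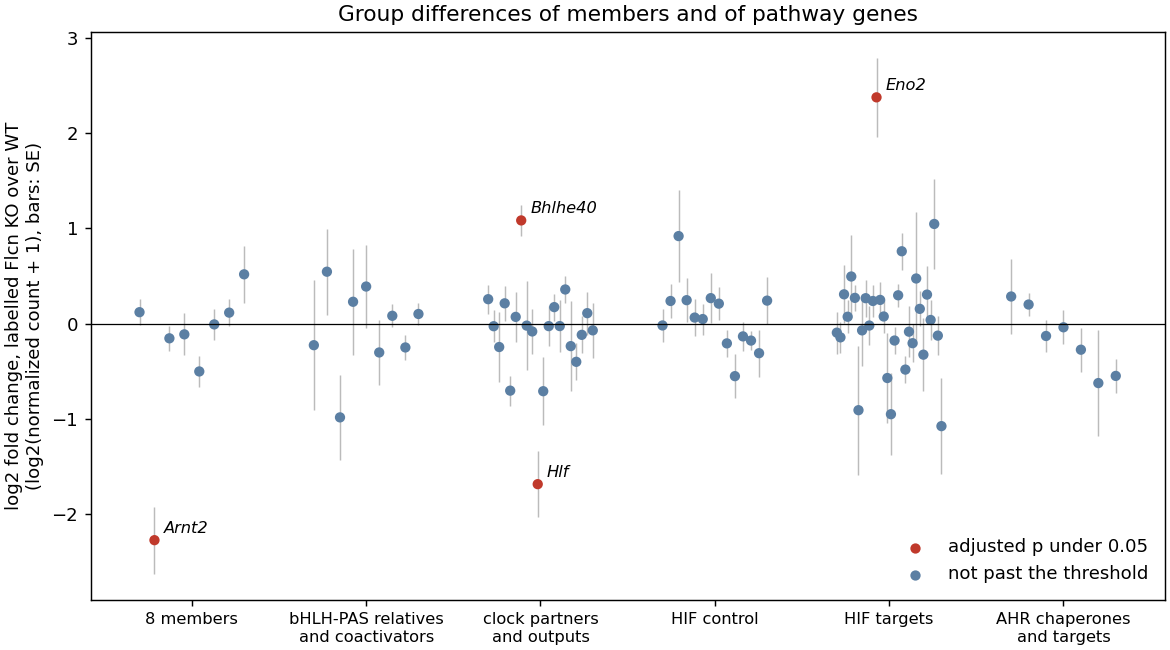
Log2 fold changes (points, with SE bars) of the 8 genes and of 5 lists of related genes, Flcn KO-labelled libraries over WT. Red points have a limma adjusted p under 0.05: Arnt2 (-2.27), Bhlhe40 (1.08), Hlf (-1.68) and Eno2 (2.38).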

How the data were processed

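RNA-seq was measured in 10 libraries, 5 WT and 5 Flcn KO. Per the submitters' processing notes, the authors' tools were DESeq2 1.24.0, RSEM 1.3.1, STAR 2.5.3a and Trimmomatic 0.36, and the build was mm9. How each was run is not stated there. The deposited signal columns are normalized counts: all values (100% per library) are whole multiples of 1 read's worth within 0.01 reads, so reads could be recovered. The authors also deposited a log2 fold change, its standard error (another log2 quantity), a Wald score, a p-value and an adjusted p-value.

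The main test was limma 3.58.1 on log2(normalized count + 1), genotype alone, for 14723 genes with a value of 1 or more in at least 5 libraries, with Benjamini-Hochberg adjustment over all of them and a threshold of 0.05. edgeR 4.0.16 (quasi-likelihood) and DESeq2 1.42.0 on recovered reads, other pseudocounts, filters and scalings, a replicate block and each library left out were alternatives. The fit was tested on simulated data. The members and lists were chosen with earlier results of these data known. Named genes are the 8 members, the called and otherwise the 4 lowest-p genes per list, a fixed panel, and the genes nearest to Arnt2 in pattern or position; further list genes are examples chosen after their values were seen. A count of 0 reads allows a share of up to 7.22e-05% to 0.000157% of a library, and such limits cover counting error only. Groups were taken from the sample titles. Deviations of same-numbered libraries were nearly uncorrelated and the labels state no pairing, so the numbers were not used as pairs. List genes without a row were not analysed here, and some results on list genes are not reported here.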

Additional observations from a re-analysis of the deposited data

Results flagged for a closer look

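In 11 of 80 groups of 5 libraries looked at (each named gene in each genotype), 1 library lay far from the other 4. Chance alone would mark about 1 in 20. Among the 8 genes, Arnt2 stood at 30.0 normalized counts in Flcn KO replicate 2 against 6.94 to 13.3 in the rest of that group, Arntl at 123 in WT replicate 1 against 81.5 to 92.4, and Per1 at 121 in WT replicate 3 against 154 to 167. In WT replicate 1, the library with the high mitochondrial rRNA share, Cited2 stood at 123 (others 51.4 to 68.8) and Flcn at 78.0 (45.6 to 54.7). In the other WT libraries, Nr1d1 stood at 43.3 in replicate 3 (others 11.3 to 17.3) and Hif3a at 29.5 in replicate 4 (4.95 to 10.7). Among the Flcn KO-labelled libraries, replicate 1 had Ndrg1 at 66.0 (others 46.4 to 50.2) and Egln1 at 182 (119 to 131). Replicate 2 had Vhl at 15.5 (18.8 to 20.1), and replicate 5 had Npas2 at 1.26 (3.32 to 3.96).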

How the results depend on the processing

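Of the 8 genes, Arnt2 alone was called under all 19 alternatives, with a log2 fold change of -2.57 to -1.97. The count of members called stayed at 1 in each. The number of genes called in all, 252, was 598 with trend and robust moderation, 592 in edgeR, 727 in DESeq2 and 125 to 222 with 1 library left out. The clock list's 2 calls were 1 with a pseudocount of 0.5 (Bhlhe40), 4 in DESeq2 and 1 to 2 with 1 library left out. The 1 HIF target called became 2 in edgeR, 3 in DESeq2 and 0 to 2 with 1 library left out. The AHR list went from 0 to 1 in edgeR and in DESeq2. The causes of these shifts were not tested. With the replicate block, 59 genes were called in all, 1 on the clock list (Hlf, while Bhlhe40 had a limma adjusted p of 0.0724) and 0 HIF targets. Deviations of same-numbered libraries had correlations of 0.00923 to 0.0325, and 1 of 5 WT libraries was most like its own number. Such correlations over all genes cannot tell whether same-numbered libraries shared a day or other handling. Values of Per2 and Eno2 in single libraries rest on as few as 6 and 2 reads, which limits them.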

Other observations

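Arntl's nearest measured neighbour at lower coordinates, Mical2, which encodes an actin-oxidising enzyme, fell. It was picked after its values were seen. Mical2 had 14.9, 12.1, 6.37, 21.5 and 24.1 normalized counts in WT replicates 1 to 5 and 0, 1.11, 4.42, 1.98 and 3.14 in the Flcn KO-labelled libraries (log2 fold change -2.52, SE 0.48, limma adjusted p = 0.0302). On the other side of Arntl, Btbd10 had 42.5 ± 5.62 and 45.5 ± 2.47 normalized counts and did not pass (limma adjusted p = 0.775).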
